A study of Mus musculus with 9 samples.

Results

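The 10 genes described here encode the core transcription factors of pluripotency and the transcripts that mark embryonic stem cells: Pou5f1, Sox2, Sall4, Utf1, Lin28a, Dppa2, Dppa4, Dppa5a, Tcl1 and Fbxo15. They were taken by gene symbol from a table of 16636 genes, and all 10 were among the 14246 genes with enough counts to be tested. RNA was measured by bulk mRNA sequencing in E14 cells, an established line of mouse embryonic stem cells, kept naive on fibronectin in 2i/LIF medium with the MEK inhibitor PD0325901, the GSK3 inhibitor CHIR99021 and the cytokine LIF. The 3 groups of 3 libraries were untreated cells, cells transfected with a luciferase siRNA (siLuc, the control) and cells in which an siRNA targeted Stag3 (siStag3). Both siRNA groups were collected after 48 hours and received 50 pmol of siRNA at seeding and again a day later. All groups shared the cell line and the medium, and the genotype label reads wildtype for untreated, siLuc control for siLuc and Stag3 knockdown for siStag3. The labels call the samples biological replicates of this 1 line and do not say whether they came from separate cultures, so a p-value measures the spread between these samples, which may be partly technical.

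OCT4, encoded by Pou5f1, binds DNA together with SOX2 at composite sites in enhancers of pluripotency genes, and each gene is itself among the targets. SALL4 is a zinc finger partner of this network, and UTF1 is a chromatin protein expressed under OCT4 and SOX2 control. LIN28A is an RNA-binding protein that blocks maturation of the let-7 microRNAs, while DPPA2 and DPPA4 act as a pair on chromatin upstream of genes of the 2-cell embryo. DPPA5A is a small KH-domain RNA-binding protein, TCL1 is a co-activator of the kinase AKT, and FBXO15 is an F-box protein whose gene is a classic OCT4-SOX2 target and reporter of the pluripotent state. STAG3 is a subunit of cohesin best known from meiosis.

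Total counts ran from 29332436 to 44527534 per library, and the 10 genes together took 0.306% to 0.365% of them. Levels are given as CPM, the usual rate of counts to the total of a library, after scaling by its TMM normalization factor. The smallest count of any of the 10 genes in any library was 626, while 3 counts equalled 0.0674 to 0.102 CPM. Column names placed 2 libraries of each group in Set 1 and 1 in Set 3, and 42.7% of all genes tested differed between the sets. What a set stands for is not stated there. For each gene the 3 values of a group are listed in the order Set 1 experiment 1, Set 1 experiment 3 and Set 3. The Set 3 library was experiment 5 in untreated and siStag3 and experiment 1 in siLuc. A difference from siLuc within Set 3, and its dependence on the set, thus cannot be told apart from the experiment number. The share of counts from mitochondrial genes was 3.48% to 5.33% in untreated, 5.98% to 6.73% in siLuc and 4.10% to 6.78% in siStag3 libraries, and its part in the results was not tested. Stag3 itself, the check of the labels, was at 24.2 ± 2.20 CPM in siLuc and 14.8 ± 1.12 in siStag3 (mean ± SD, n = 3), 61.2% of the siLuc level with no overlap between the groups (2-sided exact permutation p = 0.1, the smallest that 3 against 3 libraries can give).

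The labelled cell type was checked against its markers. The 8 markers of embryonic stem cells had means over the 9 libraries from 187 CPM (Klf4) to 853 CPM (Pou5f1). The highest marker of each other type was Lama1 (65.4 CPM, primitive endoderm), Tfap2c (63.0, trophoblast), T (3.34, mesoderm), Tubb3 (112, neurectoderm) and Thy1 (1.10, fibroblast). No marker in the table was at 0 in all libraries. The 8 embryonic stem cell markers, which include Pou5f1 and Sox2, summed to 3731 to 3831 CPM in untreated, 3722 to 3832 in siLuc and 3915 to 3969.9 in siStag3 libraries. The siStag3 sums were thus above all others. The largest rises in mean from siLuc to siStag3 were those of Pou5f1 (806 to 876 CPM) and Tdgf1 (359 to 404), while Sox2 fell (348 to 326). None of the 8 had an edgeR adjusted p under 0.05 between siStag3 and siLuc. How often sums of other genes separate the groups was not tested. The trophoblast sum (6 of 7 markers in the table) was below all others in siStag3, at 62.04 to 65.5 CPM, beside 70.4 to 72.9 in untreated and 71.2 to 74.2 in siLuc. This sum was mostly Tfap2c, and the next highest marker in it, Eomes, had a mean of 2.83 CPM. Cdx2, at a mean of 0.984 CPM, had an edgeR adjusted p under 0.05 in siStag3 against untreated. The mesoderm sum (4 of 5) was above all others in untreated, at 6.76 to 8.47 CPM, beside 3.72 to 6.62 in siLuc and 4.60 to 5.48 in siStag3. Its marker T had an edgeR adjusted p under 0.05 in siStag3 against untreated and between the sets. The neurectoderm sum (6 of 6) was 127 to 147, 136 to 144 and 145 to 165 CPM and the fibroblast sum (6 of 7) 1.73 to 2.97, 1.796 to 2.32 and 1.85 to 2.46 CPM in untreated, siLuc and siStag3. The part of these lists in the results below was not tested. The summed primitive endoderm list (9 of 9), which was led by Lama1, ran from 69.2 to 95.2 CPM in untreated, 60.8 to 75.5 in siLuc and 60.5 to 75.9 in siStag3 libraries.

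The 10 genes covered a wide range of abundance. By CPM the mean over all libraries put Dppa5a at rank 81 and Pou5f1 at rank 123 of 14246 genes, and Dppa4 and Utf1 at ranks 5521 and 6163. To compare genes, CPM was divided by the length of the longest coding transcript in kilobases. On this scale the untreated cells gave Dppa5a 1705 ± 281 CPM per kb (SD, n = 3) and Pou5f1 644 ± 27.8. Fbxo15 followed at 163 ± 4.99 and Sox2 at 147 ± 14.3, then Tcl1 at 72.6 ± 5.56 and Sall4 at 69.4 ± 4.08. The lowest were Lin28a at 36.9 ± 3.84, Dppa2 at 25.7 ± 4.94, Dppa4 at 22.4 ± 1.21 and Utf1 at 17.6 ± 2.15 CPM per kb. In that order the neighbours Fbxo15 and Sox2, Tcl1 and Sall4, and Dppa2 and Dppa4 overlapped among the untreated libraries, and all other neighbours were apart. Pou5f1 RNA was thus above Sox2 RNA in every library, also per length.

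**Figure D1:**
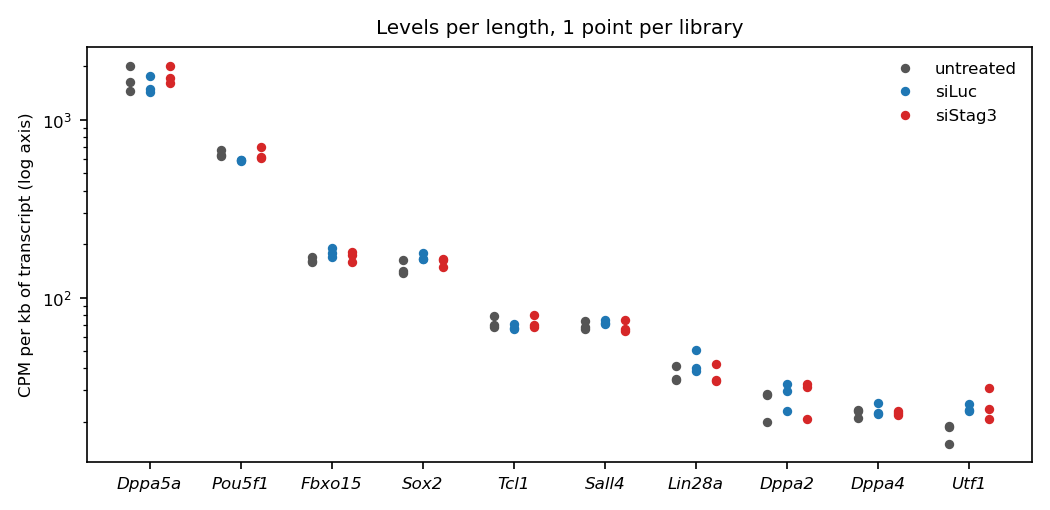
Level per transcript length (CPM per kb, log axis) of the 10 genes in the 9 libraries, 1 point per library, coloured by group and ordered by the untreated mean. Dppa5a and Pou5f1 stand above the other genes in every library, and Utf1 has the lowest untreated mean, 17.6 CPM per kb.

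In siStag3 against siLuc, the comparison of Stag3 knockdown with its control, none of the 10 genes passed the threshold of an adjusted p of 0.05 (edgeR quasi-likelihood test with a set term), where 0.0281% of all genes tested passed. At an unadjusted p under 0.05 there were 2 of the 10, Lin28a and Dppa5a, beside 7.88% of all genes. The DESeq2 Wald test also called 0 of the 10, and 22 of 14246 genes. Without the set term 0 of the 10 passed and 0 had an unadjusted p under 0.05, beside 0% of all genes called. A correction for the GC content of the genes, added to the set term, called 0.302% of all genes and 1 of the 10, Lin28a. The log2 fold changes of the 10 genes ran from -0.23 to 0.19, with a median of -0.04 beside -0.00479 for all genes. The median absolute log2 fold change was 0.0841, and 0.0868 over all genes. The CPM of the groups did not overlap for 1 of the 10 genes, Pou5f1, and for 6.59% of all genes.

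In siLuc against untreated, which takes transfection and the control siRNA together, 1 of the 10 genes passed, Lin28a, beside 4.20% of all genes. A further 5 had an unadjusted p under 0.05 (Pou5f1, Sox2, Utf1, Dppa2 and Fbxo15), as did 27.8% of all genes. Without the set term 0 passed, beside 0.00702% of all genes (2 of the 10 at an unadjusted p under 0.05, beside 8.56%). With the GC correction 2 passed, Utf1 and Lin28a, beside 6.50% of all genes. Groups did not overlap for 4 of the 10, Pou5f1, Sox2, Utf1 and Fbxo15, and for 19.9% of all genes.

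In siStag3 against untreated 1 of the 10 passed, Utf1, beside 2.53% of all genes, and Utf1 was also the 1 gene whose groups did not overlap, against 10.0% of all genes. Without the set term 0 passed, beside 0.0140% of all genes (1 of the 10 at an unadjusted p under 0.05, beside 5.95%). The GC correction again called Utf1 alone among the 10, beside 6.06% of all genes. The other 9 genes had log2 fold changes from -0.01 to 0.13, and the median absolute change of the 10 was 0.0415, against 0.110 over all genes. The 3 comparisons share libraries in pairs, so their values are not independent. Since RNA was taken in bulk, fewer cells that express a gene and less RNA per cell cannot be told apart.

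**Figure D2:**
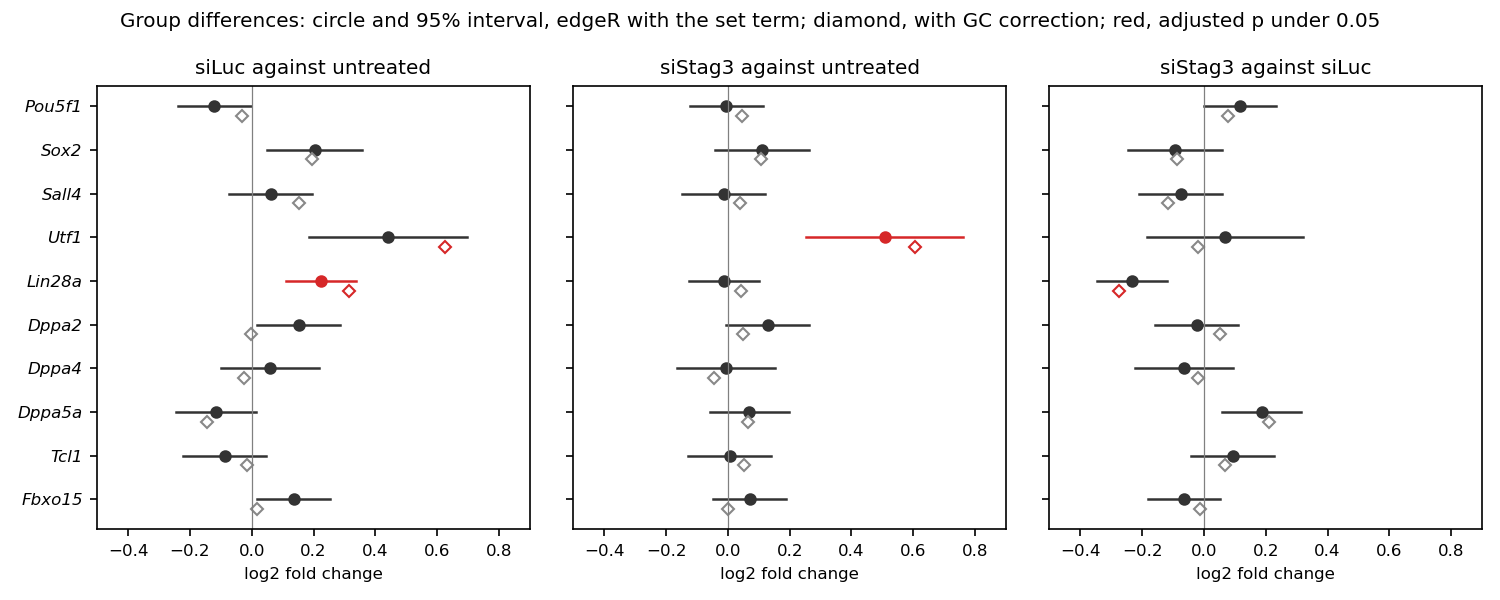
Log2 fold change of each gene in the 3 comparisons, with 95% intervals from the edgeR fit with the set term (circles) and the value after GC correction (diamonds); red marks an adjusted p under 0.05. With the set term, red appears for Lin28a in siLuc against untreated (0.22) and Utf1 in siStag3 against untreated (0.51), and in siStag3 against siLuc no circle is red.

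Pou5f1 (ENSMUSG00000024406), the gene of OCT4, had a highest CPM 1.198 times its lowest over the 9 libraries. It was at 851, 861 and 921 CPM in untreated, 800.2, 810.2 and 808 in siLuc, and 838, 830.4 and 958 in siStag3 libraries. The 3 siLuc libraries lay close together and below every library of the other groups. siLuc differed from untreated by -0.12 on the log2 scale (SE 0.0545, edgeR adjusted p 0.168), and after the GC correction by -0.03 (adjusted p 0.735). siStag3 differed from siLuc by 0.12 (95% interval -0.000868 to 0.23, edgeR adjusted p 0.637), and from untreated by -0.00476 (interval -0.12 to 0.11). Within the sets siStag3 differed from siLuc by 0.05 in Set 1 and 0.25 in Set 3. Of the 31-base sequences of Pou5f1, 11.3% also lie on the opposite strand in Gm19553, and the strand setting of the counting is not given in the sources used here, so reads of these 2 genes could not be told apart without strand.

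Sox2 (ENSMUSG00000074637), the partner of OCT4 on composite sites, was at 288, 336 and 282 CPM in untreated, 338, 337 and 367 in siLuc, and 339.7, 334 and 305 in siStag3 libraries. Every siLuc library was above every untreated one, with 336 and 337 CPM as the nearest values, and siStag3 overlapped both. siLuc differed from untreated by 0.20 on the log2 scale (SE 0.0713, adjusted p 0.0980 in edgeR), and it was 0.20 after GC correction (adjusted p 0.0866). siStag3 differed from siLuc by -0.09 (95% interval -0.25 to 0.06). Both values rested in part on the siLuc library of Set 3: without it they were 0.12 (adjusted p 0.422) and -0.00259, and within the sets siStag3 differed from siLuc by -0.00296 in Set 1 and -0.27 in Set 3.

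The ratio of Pou5f1 to Sox2 within a library removes the scaling of that library. Its log2 value was 1.56, 1.36 and 1.71 in untreated, 1.24, 1.27 and 1.14 in siLuc, and 1.30, 1.31 and 1.65 in siStag3 libraries. All siLuc ratios were below all ratios of the other groups, with 1.27 and 1.30 as the nearest values. The ratio was computed from values already seen, and is given as a description with no test. It was not corrected for GC content, which was 57.6% for Pou5f1 and 50.5% for Sox2. After the GC correction the siLuc difference from untreated was -0.03 for Pou5f1 and 0.20 for Sox2.

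Sall4 (ENSMUSG00000027547) moved least between libraries, with a highest CPM 1.16 times its lowest. It was at 376, 345 and 336 CPM in untreated, 364, 379 and 359.7 in siLuc, and 381, 329 and 337 in siStag3 libraries. The groups overlapped throughout. No log2 fold change passed, at 0.06 for siLuc against untreated (95% interval -0.07 to 0.20), -0.08 for siStag3 against siLuc (interval -0.21 to 0.06) and -0.01 for siStag3 against untreated (interval -0.15 to 0.12). After the GC correction the first of these was 0.15 (edgeR adjusted p 0.0887).

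**Figure D3:**
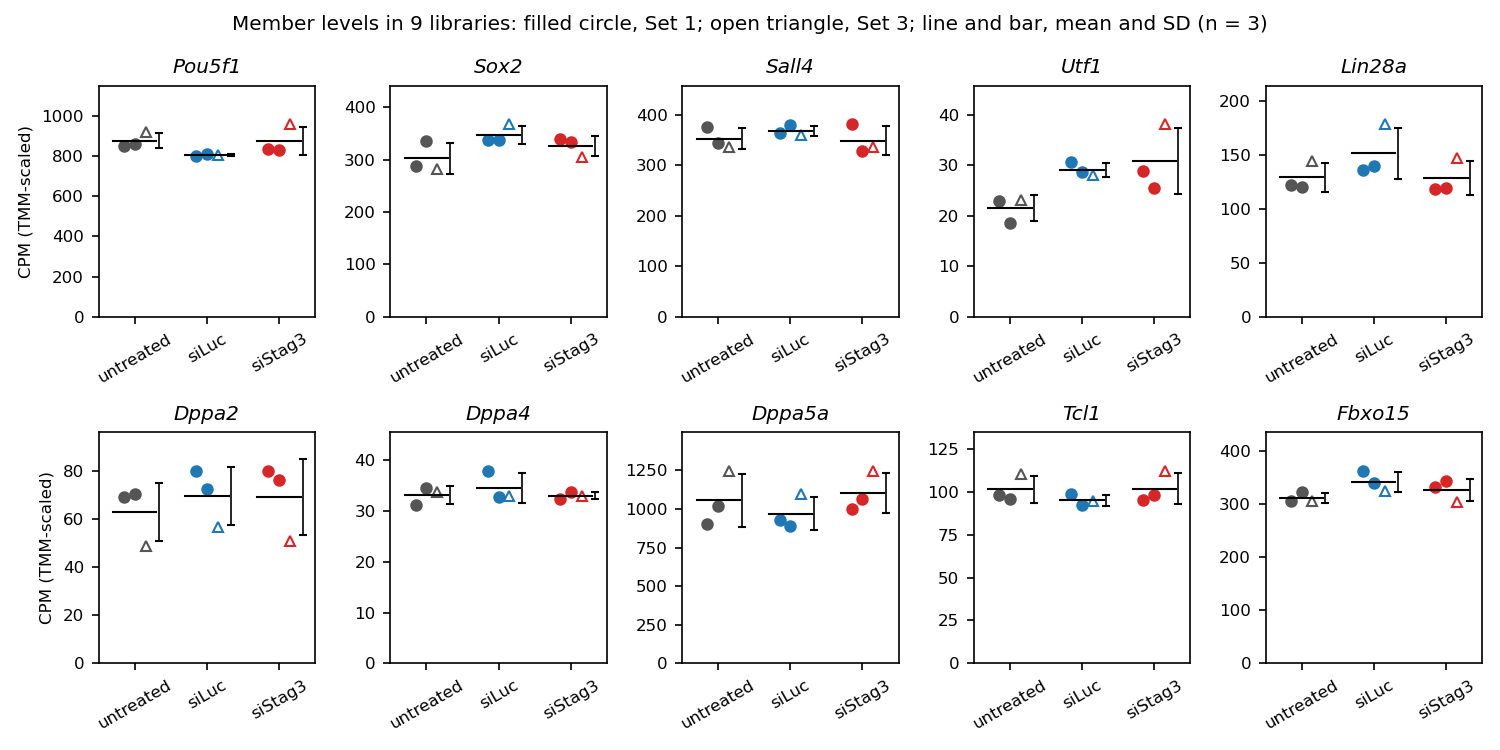
CPM of the 10 genes in untreated, siLuc and siStag3 libraries on axes from 0, with filled circles for Set 1, open triangles for Set 3, and a line and bar for mean and SD (n = 3). Utf1 is higher in all siLuc and siStag3 libraries than in all untreated ones. The Set 3 triangle is the highest of its group for Lin28a and Dppa5a and the lowest for Dppa2 and, by less, Fbxo15.

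Utf1 (ENSMUSG00000047751), the chromatin gene downstream of OCT4 and SOX2, varied most, with a highest CPM 2.06 times its lowest. It was at 23.0, 18.5 and 23.1 CPM in untreated, 30.7, 28.7 and 28.0 in siLuc, and 28.9, 25.5 and 38.1 in siStag3 libraries. All 6 transfected libraries were above all 3 untreated ones, and siLuc and siStag3 overlapped. Utf1 rose by 42.2% in siStag3 against untreated, a log2 difference of 0.51 (SE 0.116) with an adjusted p of 0.0428 (edgeR). The call was lost without the set term (adjusted p 0.542) and in 3 of the 6 fits that left out 1 library. These were the fits without the untreated library of Set 1 experiment 3, the untreated library of Set 3 and the siStag3 library of Set 1 experiment 1, and the adjusted p over the 6 fits ran from 0.0198 to 0.215.

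In siLuc the Utf1 difference from untreated was 0.44 (SE 0.117). Its adjusted p in edgeR was 0.0544, which missed the threshold, and 0.580 without the set term. Between siStag3 and siLuc it was 0.07 (95% interval -0.19 to 0.32, adjusted p 0.889). Utf1 had the highest GC content of the 10 genes, 63.5%, and the group differences of all genes ran with GC content. The Spearman correlation of log2 fold change with GC content over 14226 genes was -0.47 in siLuc against untreated and -0.30 in siStag3 against untreated. Utf1 was higher than in untreated in both, and the cause was not tested. The GC correction, which brought these correlations to 0.0281 and 0.0292, gave Utf1 0.63 in siLuc (adjusted p 1.56e-05) and 0.60 in siStag3 (adjusted p 1.68e-05). Its siStag3 library of Set 3 stood at 38.1 CPM, and the difference of siStag3 from siLuc was -0.13 in Set 1 and 0.44 in Set 3. The test of that dependence on the set, added after the values were seen, gave an unadjusted p of 0.00791 and an edgeR adjusted p of 0.105.

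Lin28a (ENSMUSG00000050966) is held in a mutual loop with let-7: LIN28A blocks let-7 maturation, and let-7 and miR-125 target Lin28a RNA. The microRNAs are shown because the loop rests on a few bases, their seed (bases 2 to 8, in capitals). The mature sequences, from RefSeq with GRCm38.p6, fall into a let-7 seed and a miR-125 seed, with miR-294, an abundant embryonic stem cell microRNA, as a further seed.
let-7a: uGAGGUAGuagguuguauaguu
let-7g: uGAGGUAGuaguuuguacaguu
miR-125a: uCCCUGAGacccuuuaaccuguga
miR-125b: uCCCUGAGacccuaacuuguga
miR-294: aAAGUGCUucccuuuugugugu

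The reverse complements of these seeds, CTACCTC for let-7, CTCAGGG for miR-125 and AGCACTT for miR-294, were searched on the sense strand of the 3′ UTR of the longest coding transcript of each gene (GENCODE M21). The Lin28a 3′ UTR of 2775 bases held CTACCTC at bases 909 and 1547 and CTCAGGG at base 797, counted from the first base of the UTR. Sall4 held CTACCTC at base 1082 of 1697, and the other 8 genes held none of the 3 matches. Of 16279 3′ UTRs, of median length 1111 bases, 10.2% held CTACCTC, 15.1% CTCAGGG and 16.6% AGCACTT. A match is only a string of letters, and microRNAs were not measured in these libraries. The matches are in capitals within their surroundings.
Lin28a, let-7 match at base 909: cagcctgttgaaCTACCTCatttt
Lin28a, let-7 match at base 1547: atcgccacaaacCTACCTCactgt
Lin28a, miR-125 match at base 797: tacatgagcaatCTCAGGGataat
Sall4, let-7 match at base 1082: gctttaatttatCTACCTCaatta

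Lin28a RNA was at 123, 121 and 145 CPM in untreated, 136, 140.4 and 179 in siLuc, and 119, 120.0 and 147 in siStag3 libraries. siLuc was the highest group within each set, and the untreated and siStag3 values lay side by side; across sets the groups overlapped. Lin28a rose by 16.7% in siLuc against untreated, a log2 difference of 0.22 (SE 0.0526) with an adjusted p of 0.0343 (edgeR). The difference was 0.18 within Set 1 and 0.30 within Set 3. The adjusted p was 0.611 without the set term, and none of the 6 fits that left out 1 library kept the call (adjusted p 0.0662 to 0.152, log2 fold change 0.20 to 0.25).

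siStag3 differed from siLuc in Lin28a by -0.23 (SE 0.0526, 95% interval -0.35 to -0.12), with an unadjusted p of 0.000576 and an edgeR adjusted p of 0.228. The difference was -0.21 within Set 1 and -0.28 within Set 3. With the GC correction it was -0.27 and passed (adjusted p 0.0172), while the siLuc rise was 0.32 (adjusted p 0.000606). Against untreated, siStag3 differed by -0.01 (interval -0.12 to 0.10). The siLuc libraries enter both of these comparisons, so the siLuc rise and the siStag3 difference are not separate observations. The opposite strand holds 5.18% of the 31-base sequences of Lin28a, in Gm13061.

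The developmental pluripotency-associated genes Dppa2, Dppa4 and Dppa5a share a name and not a family: DPPA2 and DPPA4 carry SAP domains and bind chromatin, and DPPA5A binds RNA. Dppa2 (ENSMUSG00000072419) was at 69.3, 70.4 and 48.9 CPM in untreated, 79.9, 72.5 and 56.5 in siLuc, and 79.99, 76.3 and 51.0 in siStag3 libraries. The Set 3 library was the lowest of every group, and groups overlapped. The log2 fold change was 0.15 for siLuc against untreated (SE 0.0625, edgeR adjusted p 0.137; -0.00260 after GC correction), 0.13 for siStag3 against untreated (adjusted p 0.311) and -0.02 for siStag3 against siLuc (95% interval -0.16 to 0.11).

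Dppa4 (ENSMUSG00000058550), the partner of Dppa2, was at 31.2, 34.6 and 33.8 CPM in untreated, 37.9, 32.8 and 32.98 in siLuc, and 32.4, 33.8 and 32.9 in siStag3 libraries. The groups overlapped and Set 3 was not apart. Its log2 fold changes were 0.06, -0.06 and -0.00606 in siLuc against untreated, siStag3 against siLuc and siStag3 against untreated, with edgeR adjusted p of 0.637, 0.833 and 0.977. The log2 ratio of Dppa2 to Dppa4 was 1.15, 1.03 and 0.53 in untreated, 1.08, 1.14 and 0.78 in siLuc, and 1.30, 1.17 and 0.63 in siStag3 libraries, so the ratio of the pair was lower in Set 3 in every group.

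**Figure D4:**
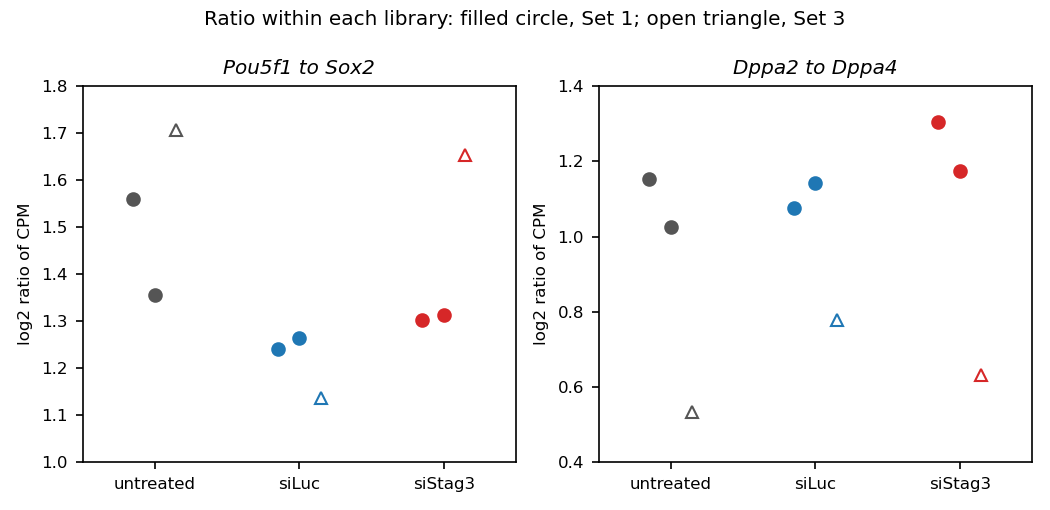
Log2 ratio of CPM, without GC correction, within each library for Pou5f1 to Sox2 (left) and Dppa2 to Dppa4 (right), with filled circles for Set 1 and open triangles for Set 3. The siLuc ratios of Pou5f1 to Sox2 are the lowest 3 of the 9, and the Dppa2 to Dppa4 ratio of Set 3 is the lowest in each group.

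Dppa5a (ENSMUSG00000060461) was at 903, 1018 and 1245 CPM in untreated, 926, 889.7 and 1094 in siLuc, and 998, 1067 and 1246 in siStag3 libraries. The Set 3 library was the highest of each group, and groups overlapped. siStag3 differed from siLuc by 0.19 on the log2 scale (SE 0.0601, 95% interval 0.06 to 0.32), with an unadjusted p of 0.00797 and an edgeR adjusted p of 0.455. The difference was 0.18 in Set 1 and 0.19 in Set 3, and 0.21 after GC correction (adjusted p 0.105). siLuc differed from untreated by -0.12 (adjusted p 0.220) and siStag3 by 0.07 (adjusted p 0.576).

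Of the 10 genes, Dppa2, Dppa4 and Dppa5a shared the largest part of their sequence with other genes, and the counting could split reads between them. The effect on their values was not tested. Of the 31-base sequences of the GENCODE M21 transcripts, 57.2% of those of Dppa5a also occur in another gene, among them 22.8% in Pigp and 19.5% in Dppa5b. Pigp is in the count table and Dppa5b is not. The share was 40.1% for Dppa4 and 33.8% for Dppa2, in each case mostly in gene models of the same strand that carry only a Gm number. The models with the largest shares for Dppa2 and Dppa4 are not in the count table. It was 0% for Utf1 and Tcl1.

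Tcl1 (ENSMUSG00000041359), the AKT co-activator, was at 98.3, 95.7 and 110.3 CPM in untreated, 98.7, 92.5 and 94.4 in siLuc, and 95.2, 98.2 and 112 in siStag3 libraries. The groups overlapped. The log2 fold change was -0.09 for siLuc against untreated (edgeR adjusted p 0.372), 0.09 for siStag3 against siLuc (95% interval -0.04 to 0.23) and 0.00552 for siStag3 against untreated (interval -0.13 to 0.14). Within the sets siStag3 differed from siLuc by 0.02 in Set 1 and 0.25 in Set 3.

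Fbxo15 (ENSMUSG00000034391), the F-box gene used as a reporter of pluripotency, was at 305, 322 and 305 CPM in untreated, 362, 339 and 323 in siLuc, and 333, 344 and 303 in siStag3 libraries. All siLuc values were above all untreated ones, with 322 and 323 CPM as the nearest, and siStag3 overlapped both. The Set 3 library was the lowest of each group, in untreated at 304.7 beside 305.4 CPM. The difference of Set 3 from Set 1 was -0.10 (edgeR adjusted p 0.0896). On the log2 scale siLuc differed from untreated by 0.14 (SE 0.0545, adjusted p 0.132 in edgeR) and 0.02 after GC correction (adjusted p 0.881). siStag3 differed from siLuc by -0.07 (95% interval -0.18 to 0.05).

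Some of the 10 genes varied with the set. Of the 10, 3 differed between Set 3 and Set 1 with the group in the fit, beside the 42.7% of all genes given above. Lin28a was higher in Set 3 by 0.31 (SE 0.0450, edgeR adjusted p 0.000169) and Dppa5a by 0.31 (SE 0.0514, adjusted p 0.000464), and Dppa2 was lower by 0.52 on the log2 scale (SE 0.0554, adjusted p 1.78e-05). For these 3 genes the 3 libraries of Set 3 did not overlap the 6 of Set 1. Within the groups the Dppa2 difference was -0.51 in untreated, -0.43 in siLuc and -0.61 in siStag3. After the GC correction, which called 40.1% of all genes, these 3 still passed, with smaller differences for Lin28a (0.18) and Dppa2 (-0.32) and 0.34 for Dppa5a, and Sall4 passed too (-0.20, adjusted p 0.00202). No gene of the 10 passed a test of whether a group difference depended on the set, and the smallest adjusted p was the 0.105 of Utf1. Over all genes that test called 160 (1.12%) in siStag3 against siLuc, 2 in siLuc against untreated and 1 in siStag3 against untreated.

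**Figure D5:**
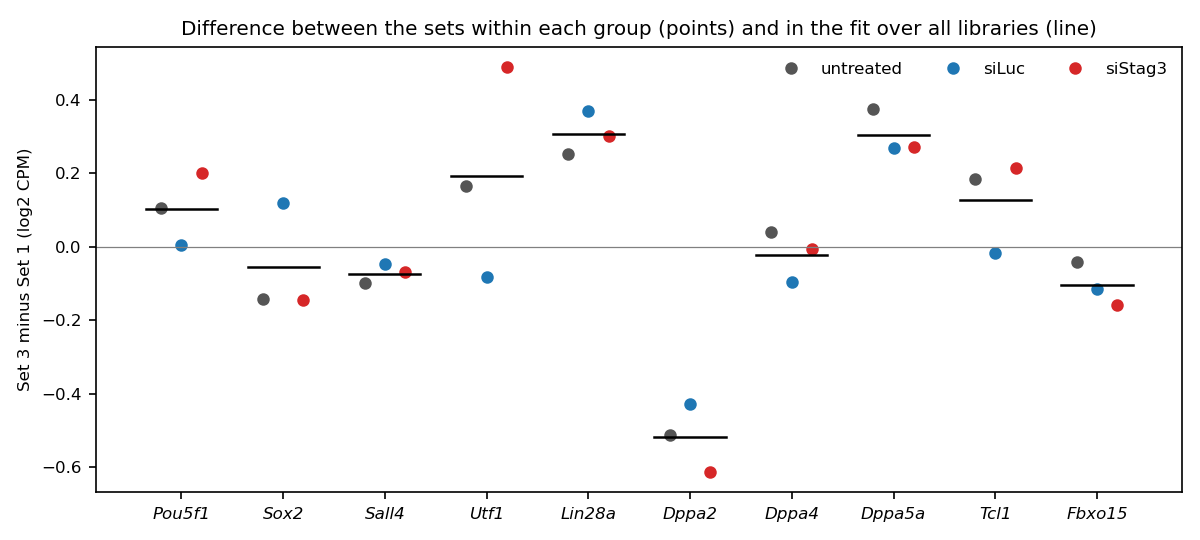
Difference of Set 3 from Set 1 on the log2 CPM scale, as 1 point per group and, as a line, the value of the edgeR fit over all 9 libraries. The points of Lin28a and Dppa5a lie above 0 and those of Dppa2 and, nearer to 0, Sall4 and Fbxo15 below 0 in all 3 groups. Those of Pou5f1, Sox2, Utf1, Dppa4 and Tcl1 are spread over 0 or close to it in at least 1 group.

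With the set term the 10 genes had a median biological coefficient of variation of 6.22%, beside 7.66% for all genes tested, and 8.95% beside 13.0% without it. With the set term they ran from 5.46% (Lin28a) to 9.92% (Utf1). All genes tested were not matched to the 10 in abundance, so the medians do not show that the 10 were unusually steady. For each gene, the gene nearest in pattern was the one with the smallest root mean square difference in log2 CPM centred on its own mean, over the 9 libraries, among 5674 genes (5675 for Utf1) whose log2 CPM averaged 5 or more. These were Ppp1ca for Pou5f1 (0.0169), Snap23 for Sox2 (0.0300), Adnp2 for Sall4 (0.0280), Psmb2 for Tcl1 (0.0135) and Ddx1 for Fbxo15 (0.0189). They were Gpc3 for Lin28a (0.04997), Meis2 for Dppa2 (0.0535), Adh5 for Dppa4 (0.0333) and Pdgfa for Dppa5a (0.0501). The nearest gene to Utf1, Ldha, was farther away (0.134). Utf1 also deviated most from its own mean, with a root mean square of 0.280, beside 0.0740 for Dppa4, the smallest of the 10. None of the 10 genes was the nearest of another, and libraries shared by all genes, with their set and depth, enter each such distance.

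Other genes of the same pathways were taken from lists of known components, not chosen by how they moved. For comparison with the lists, edgeR with the set term called 0.0281% of all genes in siStag3 against siLuc. It called 4.20% in siLuc against untreated and 2.53% in siStag3 against untreated. At an unadjusted p under 0.05 the shares of all genes were 7.88%, 27.8% and 17.0% in the same order. DESeq2 called 22, 1337 and 417 of 14246 genes. Of 20 embryonic stem cell transcripts and OCT4-SOX2 targets, all tested, 1 was higher in siLuc than in untreated, 2 were higher in siStag3 than in untreated, none was lower, and 0 passed in siStag3 against siLuc (5 at an unadjusted p under 0.05, and 0 with DESeq2). With the GC correction 2 were higher in siLuc and 4 in siStag3 than in untreated, where 6.50% and 6.06% of all genes passed. L1td1, which encodes an RNA-binding protein that interacts with LIN28A, rose from 438 ± 31.2 CPM in untreated to 538 ± 56.3 in siLuc (0.29, edgeR adjusted p 0.0117) and 547 ± 72.8 in siStag3 (0.32, adjusted p 0.00725). Tdgf1, which encodes the NODAL co-receptor CRIPTO, rose from 325 ± 18.1 to 404 ± 27.7 CPM in siStag3 (0.31, adjusted p 0.0127). In siStag3 against siLuc the smallest p-values were those of Dnmt3l, a cofactor of DNA methyltransferases (-0.34, edgeR adjusted p 0.394) and Tdgf1 (0.17, adjusted p 0.484). The list had a median log2 fold change of 0.03 there, beside -0.00479 for all genes, and of 0.00985 in siLuc and 0.02 in siStag3 against untreated.

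Of 15 genes of the LIN28 and let-7 pathway, all tested, 0 passed the edgeR test in any of the 3 comparisons. At an unadjusted p under 0.05 there were 3 in siStag3 against siLuc, 3 in siLuc against untreated and 1 in siStag3 against untreated, and DESeq2 called 0, 1 and 0. In siStag3 against siLuc the smallest p-values were those of Hmga2, a let-7 target (-0.21, edgeR adjusted p 0.446), and Tut4, the uridyl transferase recruited by LIN28A (-0.22, adjusted p 0.459). In siLuc against untreated they were those of Lin28b, the paralog of Lin28a, at 2.27 ± 1.03 CPM in untreated and 3.44 ± 0.363 in siLuc (0.65, adjusted p 0.0687), and of Tut4 (0.17, adjusted p 0.133). In siStag3 against untreated they were those of Arid3b (-0.19, adjusted p 0.182) and Lin28b (0.41, adjusted p 0.321). The list medians were -0.08, 0.06 and -0.02 in these 3 comparisons, and the GC correction called Hmga1 higher in both siRNA groups than in untreated and Hmga2 lower in siStag3 (-0.17, adjusted p 0.0457).

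Of 19 genes listed as downstream of DPPA2 and DPPA4, 10 were in the table and only 5 had enough counts to be tested. The list held 2-cell genes and also Mael and Syce1, which are known from the germline. The 2-cell genes tested were low, with means over the libraries of 0.248 (Zscan4f), 1.04 (Usp17la) and 0.221 CPM (Eif1ad8). Values of Mael and Syce1 are thus not a measure of 2-cell genes. The edgeR test called 0 in each of the 3 comparisons, as did DESeq2, with 0 in siStag3 against siLuc, 2 in siLuc against untreated and 1 in siStag3 against untreated at an unadjusted p under 0.05. Mael, a piRNA pathway gene, was at 1.94 ± 0.335 CPM in untreated, 2.96 ± 0.967 in siLuc (0.58, edgeR adjusted p 0.0501) and 2.67 ± 0.492 in siStag3 (0.45, adjusted p 0.154). Syce1, a gene of the meiotic synaptonemal complex, was at 11.5 ± 2.21, 14.0 ± 2.67 and 13.0 ± 3.88 CPM (0.27 in siLuc against untreated, adjusted p 0.0917, and 0.0490 after GC correction). Eif1ad8 had the smallest p in siStag3 against siLuc and was near the floor, at 0.146 ± 0.0885 CPM in siLuc and 0.255 ± 0.0586 in siStag3. Between the sets, Syce1 (-0.60, edgeR adjusted p 0.000113), Mael (-0.59, adjusted p 0.00390) and Eif1ad8 (adjusted p 0.0400) were lower in Set 3. These were 3 of the 5 tested, beside the 42.7% of all genes that differed. After GC correction they were 2 of the 5, without Eif1ad8 (adjusted p 0.120). In the other lists 6 of 20 embryonic stem cell transcripts and 6 of 15 LIN28 and let-7 genes were called lower in Set 3 (3 and 1 higher). So were 3 of 15 relatives of the 10 genes and 6 of 12 TCL1 and AKT genes (0 and 1 higher).

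Of 19 relatives of the 10 genes, 15 were tested and 1 passed, in siStag3 against untreated. In siStag3 against siLuc and siLuc against untreated edgeR called 0 (1 and 4 at an unadjusted p under 0.05) and DESeq2 1 and 2. Dppa3, a maternal-effect gene that protects DNA methylation in the zygote and shares only the name with the other Dppa genes, fell in siStag3 against untreated, from 44.0 ± 6.16 to 24.2 ± 2.51 CPM (-0.86, SE 0.102, edgeR adjusted p 0.000781; 0.0604 without the set term). It was at 34.7 ± 2.35 CPM in siLuc, which differed by -0.34 from untreated (adjusted p 0.0659) while siStag3 differed by -0.52 from siLuc (adjusted p 0.168). After the GC correction Dppa3 also passed in siLuc against untreated (-0.46, edgeR adjusted p 0.0446). In siLuc against untreated the smallest p was that of Sox15, a relative of Sox2 (-0.39, adjusted p 0.0530), and in siStag3 against siLuc Sall2, a relative of Sall4, came after Dppa3 (0.18, adjusted p 0.730).

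Of 12 genes of TCL1 and AKT signalling, all tested, 0 passed the edgeR test with the set term in any of the 3 comparisons. With the GC correction 1 passed, Foxo3, higher in siLuc than in untreated (0.26, edgeR adjusted p 0.00642). In siLuc against untreated 5 had an unadjusted p under 0.05 and DESeq2 called 2, and both counts were 0 in the other comparisons. Akt2, an AKT kinase, was at 154 ± 2.73 CPM in untreated, 132 ± 10.8 in siLuc (-0.22, edgeR adjusted p 0.0633) and 140.4 ± 4.25 in siStag3 (-0.13, adjusted p 0.310). In siStag3 against siLuc the smallest p was that of Gsk3b, a kinase inhibited by AKT (-0.12, adjusted p 0.660). No gene of the 5 lists passed in any of the 3 comparisons when the set term was left out.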

How the data were processed

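Raw counts per gene for 9 libraries were used as deposited by the authors. Per the submitters' processing notes the tools were FastQC, Salmon and DESeq2, with GRCm39, and the notes give no versions, annotation or strand setting. The deposited counts are whole numbers, and whether Salmon estimates were rounded is not given in the sources used here. Column names give the group, a set and an experiment number, and not the replicate numbers of the sample titles.

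Genes were filtered with filterByExpr and tested with edgeR 4.0.16 in R 4.3.3 (TMM, robust quasi-likelihood F test, 2-sided) on all 9 libraries, with a mean per group and a set term, with Benjamini-Hochberg adjustment over 14246 genes. The standard error is the absolute log2 fold change divided by the square root of F. GC correction subtracted from each library the median deviation in 20 bins of GC content, from the GENCODE M21 transcripts (16604 of 16636 gene IDs matched). Alternatives were a fit without the set, DESeq2 1.42.0, other scalings and filters, library subsets and libraries left out. The script was tested on simulated data.

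The genes, lists and design were chosen with earlier results of these data known. From each list, genes past the threshold were named, up to 4 per comparison, or otherwise the 2 of smallest p, and from the marker lists the highest gene of each type. The other markers past the threshold were Cdx2, T, Pax6, Tdgf1, Nanog, Klf4, Dab2, Lama1, Col4a1, Eomes and Col1a1, 8 of them between the sets. Cdx2, T and Tdgf1 passed in siStag3 against untreated and Pax6 in siLuc against untreated, and T also between the sets. No coordinates are given, because the reference used for sequences (GRCm38) is not the build of the notes. Some genes that the naming rule selects are not reported here.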

Additional observations from a re-analysis of the deposited data

How the results depend on the processing

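The number of the 10 genes past the threshold in siStag3 against siLuc was 0 under all planned settings except the GC correction, where it was 1 (Lin28a). In siLuc against untreated it was 1 (Lin28a), and it was 0 without the set term and under total-count scaling, 2 with the DESeq2 Wald test, with only the 6 libraries compared and with the GC correction (Utf1 and Lin28a each time), and 0 to 1 when 1 library was left out. In Set 1 alone the 1 gene was Utf1, not Lin28a. In siStag3 against untreated it was 1 (Utf1), and it was 0 without the set term and with total count only, and 0 to 1 when 1 library was left out. In Set 3 against Set 1 it was 3, and 5 with total count only, which added Pou5f1 and Tcl1; total count only moved the median of all genes to -0.05 against untreated and to 0.06 between the sets. No value changed sign past the threshold.

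Over all genes, siStag3 against siLuc called 4, and 0 without the set term, 22 with DESeq2, 1 with only the 6 libraries, 43 with the GC correction and 0 to 4 with 1 library left out. siLuc against untreated called 598, and 1 without the set term, 1337 with DESeq2, 1801 with only the 6 libraries, 298 in Set 1 alone, 926 with the GC correction and 111 to 387 with 1 library left out. siStag3 against untreated called 361, and 2 without the set term, 949 in Set 1 alone, 864 with the GC correction and 78 to 1591 with 1 library left out, the highest without the siStag3 library of Set 3. The cause was not tested. Leaving out a Set 3 library leaves its group without one, and the set difference is then taken from the other groups.

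The titles' replicate numbers could not be used for pairing because the columns do not carry them. The set and experiment number as a replicate block called 0 of the 10 genes in siStag3 against siLuc, 1 in siLuc against untreated (Utf1 in place of Lin28a; 86 genes in all) and 1 in siStag3 against untreated (Utf1). The siLuc library of Set 3 experiment 1 was alone in its block. The block comparisons with siLuc therefore took their siLuc level from Set 1 only. The numbers did not pair the libraries: deviations of same-numbered Set 1 libraries correlated at -0.0254, -0.0439 and -0.0371 over 14246 genes.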
